A study of Mus musculus with 6 samples.

Results

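The genes described here encode the SNARE and granule exocytosis machinery of mast cells: 34 genes, listed by symbol and chosen for the role of their products, out of 30102 genes measured on the arrays. They were chosen with earlier results of these data known, so shares of members set beside all genes are a description and not a test. All 34 had a row whose platform annotation gives a single symbol, and each had only 1 such row. Stxbp3 is listed there under its older symbol Stxbp3a. The RNA was that of bone marrow-derived mast cells (BMMCs), primary mouse cells grown from C57BL/6J femur marrow for 6 weeks with interleukin 3 and stem cell factor. Naive cells were held for 1 h in Tyrode's buffer, and activated cells for the same time in that buffer with 1 µg/mL ionomycin, an ionophore that carries calcium into the cell. Both were then washed and kept for 3 h in culture medium, so activated cells were sampled 4 h after ionomycin was added. Each group had 3 whole-transcript Affymetrix arrays. The labels do not say whether the replicates are separate cultures or animals. The p-values set a group difference against the spread within these groups, estimated in part from all genes, and that spread may be technical. The comparison asks how transcript levels of the secretory machinery stand 4 h after ionomycin was added. Release of granules is not measured in these data.

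SNARE proteins drive the fusion of a granule with the plasma membrane. A VAMP on the granule zips together with a syntaxin and a SNAP-23 type protein on the target membrane, while Munc18 and Munc13 proteins steer and prime the assembly. Synaptotagmins and DOC2 proteins are C2-domain proteins, several of which bind calcium and couple its entry to fusion, and complexins bind the assembled SNARE complex. Upstream of fusion, Rab27 on the granule recruits synaptotagmin-like proteins (Slp) and Munc13-4, and the exocyst tethers vesicles to the plasma membrane. In mast cells SNAP-23, syntaxin 4, syntaxin 3, VAMP-8 and Munc18-2 are known for their parts in degranulation.

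Values are log2 signals as deposited, and their precision is limited by the 3 arrays of each group. The replicate 1 arrays stood apart in both groups: on the first principal component, which held 52.6% of the variance over all genes, the naive one lay at -48.0 and the ionomycin one at -21.2, while the remaining 4 arrays lay between 13.0 and 21.9. The cell type was checked by markers. All 11 measured mast cell markers of 12 listed were above a background level of 5.99, which is the 95th percentile of 1752 chemosensory receptor genes, and their summed level was 16.44 to 16.47 in naive and 16.37 to 16.39 in ionomycin arrays. That sum is set by the brightest genes. Without overlap 4 of the 11 stood lower (Ms4a2 by -0.62, Kit by -0.39, Gata2 by -0.21 and Fcer1a by -0.05 on the log2 scale). That is 36.4%, against 7.31% of all genes and 10.6% of genes with a mean above background. It is close to the 38.2% of members that did so. For Fcer1a the groups were only 0.0021 apart. Hdc stood higher by 1.04, and none of the 11 passed (limma adjusted p from 0.163 to 0.948). Of the macrophage list 9 of 11 measured genes were above background (Ccr2 and Vsig4 were not), with a summed level of 11.70 to 12.51 in naive and 11.77 to 12.24 in ionomycin arrays. For B and T cell markers 6 of 8 were above it (Ms4a1 and Cd3g were not), with a summed level of 9.16 to 9.25 in naive and 9.28 to 9.38 in ionomycin arrays. The summed levels of the neutrophil, dendritic cell, basophil and eosinophil, and erythroid and megakaryocyte lists overlapped between the groups. Single genes in them stood apart: 5 of 10 dendritic cell genes were higher without overlap, led by Itgax (0.67), where 18.9% of all genes were. Of these, Flt3, Zbtb46 and Xcr1 were below background on average. Of 9 basophil and eosinophil genes, 2 were higher and 1 lower without overlap (22.2% and 11.1%, near the 18.9% and 7.31% of all genes). Siglecf was higher by 0.56 (limma adjusted p = 0.0718), and Cd200r3, the brightest of that list, stood lower by -0.29 (adjusted p = 0.165). Replicate 1 also stood apart in single markers. Mcpt8 was at 10.36 in naive replicate 1, against 9.20 and 9.03, and at 10.60 in ionomycin replicate 1, against 9.14 and 9.11. Prss34 was at 10.35, against 8.94 and 8.70, and at 10.70, against 8.85 and 8.60. Cd68 went the other way, at 10.49 against 11.99 and 11.87, and at 10.67 against 11.47 and 11.37. The part of these shifts and replicate differences in the results was not tested.

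Most of the fusion and tethering genes stood slightly lower after ionomycin, and 5 of the 7 synaptotagmins with Cplx2 and both DOC2 genes stood slightly higher, but no single member passed the test. Of these higher genes, Syt1 and Doc2b were below background, and Doc2b turned to -0.019 under both other scalings. Of the 34 members, 0 reached an adjusted p under 0.05 (limma, Benjamini-Hochberg over all 30102 genes), in a comparison where 0.349% of all genes did. With the replicate number as a block, 0 members passed again, against 0.505% of all genes. Before adjustment, 6 members were higher and 8 lower with p under 0.05, against 10.2% and 5.44% of all genes. The 3 naive and 3 ionomycin arrays did not overlap for 13 members that were lower, or 38.2%, where 7.31% of all genes were lower without overlap. For 9 members that were higher, or 26.5%, the groups did not overlap either, against 18.9% of all genes. As 32 of the 34 members were above background, the 19200 genes with a mean above it give a closer share. Of those genes, 10.6% were lower and 19.4% higher without overlap, and 8.22% were lower and 12.3% higher with limma p under 0.05. The median difference (ionomycin minus naive) over the members was -0.16 on the log2 scale, from -0.97 (Sytl2) to 0.47 (Stx11), beside a median of 0.05 over all genes. In bulk RNA, less transcript per cell and fewer cells that carry it cannot be told apart.

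The shares depend on how arrays are scaled. After quantile normalization 6 members were higher and 11 lower with no overlap, against 12.9% and 9.02% of all genes. After centring of each array on its median they were 5 and 12, against 10.8% and 11.6%. The median member stood at -0.14 and -0.23 in these settings, beside 0.01 and -0.01 for all genes. Over all genes, replicates 2 and 3 deviated together as closely across numbers (r = 0.524 and 0.481) as within them (0.476 and 0.469). Differences at numbers 2 and 3 are therefore not known to be those of true pairs. By replicate number, 18 members were lower at all 3 numbers, 12 were higher at all 3, and 4 (Vamp4, Vamp8, Stxbp3 and Sytl1) were mixed. That is 52.9% lower, against 16.8% of all genes, and 35.3% higher, against 35.8% of all genes, so the share of higher members was that of the background. Of genes with a mean above background, 22.85% were lower and 35.8% higher at all 3 numbers.

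**Figure D1:**
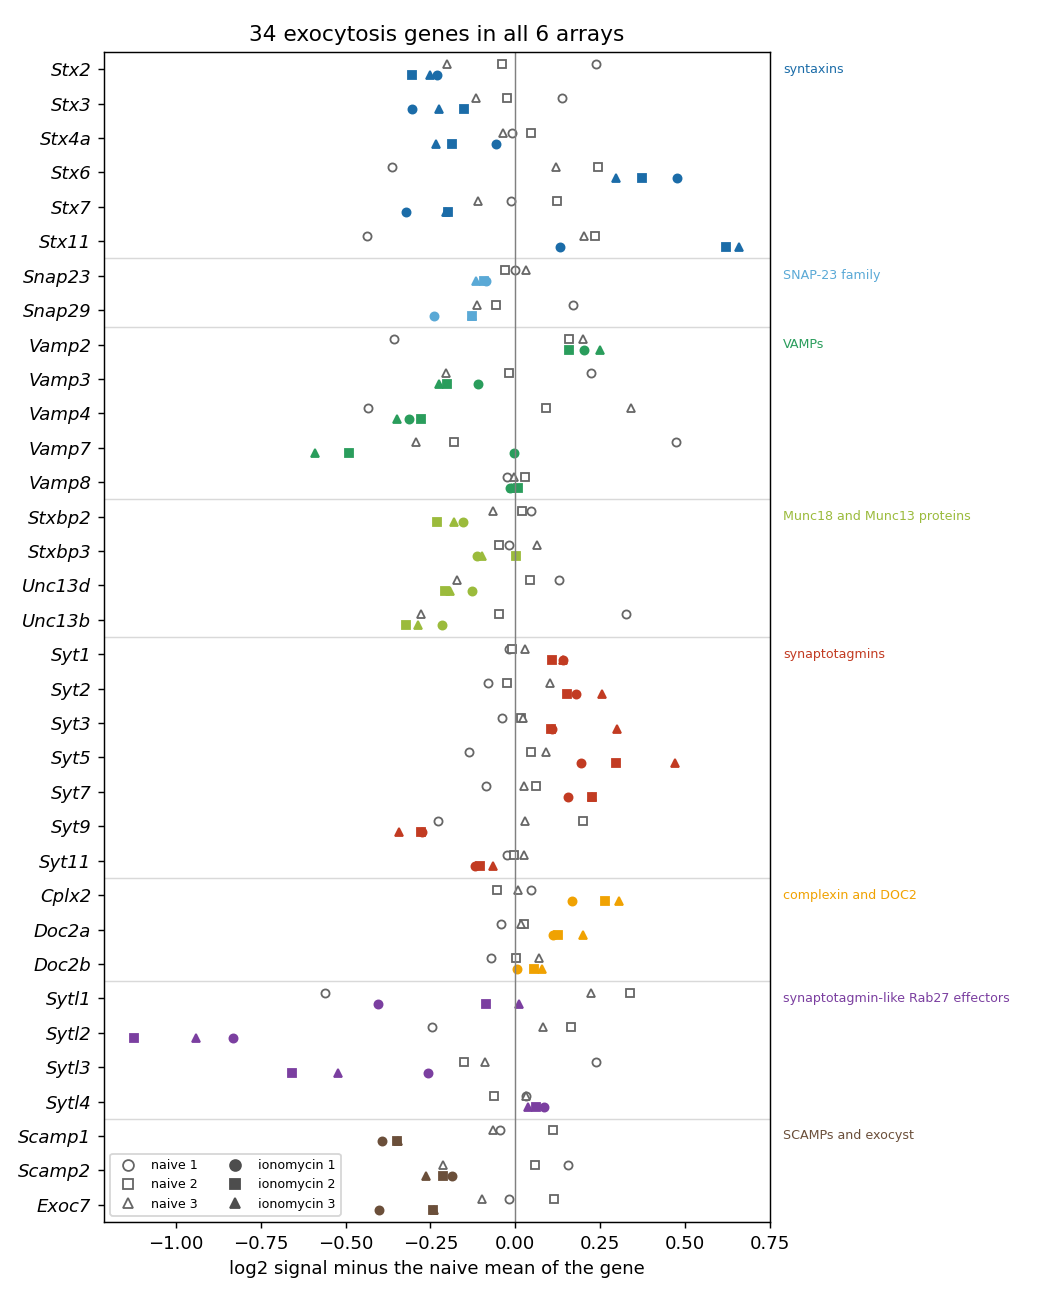
Each row is a member and each symbol is 1 array: the horizontal axis is the log2 signal minus that gene's naive mean, open symbols are the 3 naive arrays and filled symbols the 3 ionomycin arrays, with the marker shape giving the replicate number and the colour the role. Sytl2 lies farthest to the left, all filled symbols of Syt1, Syt2, Syt3, Syt5 and Syt7 lie to the right of the open ones, and Vamp8 hardly spreads at all.

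The Slp genes held the member with the largest difference. Sytl2 encodes Slp2-a, a Rab27 effector that links granules to the plasma membrane. Its log2 signal was 9.99, 10.39 and 10.31 in naive replicates 1, 2 and 3 and 9.40, 9.11 and 9.29 in ionomycin replicates 1, 2 and 3. Every ionomycin array lay below every naive array, and the gap was smallest at replicate 1, with differences of -0.59, -1.29 and -1.02 at the 3 numbers. The mean went from 10.23 ± 0.22 to 9.27 ± 0.15 (SD, n = 3 each), a difference of -0.97 ± 0.13 (SE), or 51.2% of the naive signal, which did not pass (limma adjusted p = 0.0580, and 0.0807 with the block).

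Sytl2 lay close to the threshold, and the call turned with the setting. It passed when only the 19200 genes with a mean above background were tested (limma adjusted p = 0.0496, where 0.599% of those genes passed). It also passed without naive replicate 1 (log2 -1.09, adjusted p = 0.0251, where 0.498% of all genes passed) and without both replicate 1 arrays (log2 -1.15, adjusted p = 0.00606, where 2.83% did). It did not pass when any other single array was left out, with adjusted p from 0.103 to 0.273. Over all alternatives its difference stayed between -1.18 and -0.88.

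Sytl3, which encodes another Slp of the Rab27 effector family, had log2 signals of 8.22, 7.83 and 7.90 in naive replicates 1 to 3 and 7.73, 7.32 and 7.46 in the ionomycin replicates. Here replicate 1 was the highest array in both groups, so the differences by number were nearly equal at -0.50, -0.51 and -0.43. The fitted difference was -0.48 ± 0.14 (limma adjusted p = 0.236, and 0.0557 with the block). Without both replicate 1 arrays Sytl3 passed (log2 -0.47, adjusted p = 0.0417).

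The other Slp genes gave smaller differences. Sytl1, which encodes Slp1, spanned 0.90 among the naive arrays alone, with replicate 1 lowest at 8.10, replicate 3 at 8.89 and replicate 2 highest, and was at 8.26, 8.58 and 8.67 after ionomycin, so the groups overlapped (log2 -0.16 ± 0.25, limma adjusted p = 0.759). Leaving out 1 array put that difference anywhere from -0.44 to 0.0089. Sytl4, which encodes granuphilin, was dim at 6.34, 6.24 and 6.33 in naive and 6.39, 6.37 and 6.34 in ionomycin arrays. Its groups lay apart by only 0.0050, and its difference of 0.06 turned to -0.02 after quantile normalization.

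The Slp proteins work through Rab27, so the genes of both Rab27 forms were read beside them; Rab27b was taken by the rule for pathway genes, and Rab27a was chosen after its values were seen. Rab27b was at 10.99, 11.25 and 11.26 in naive and 10.63, 10.53 and 10.57 in ionomycin arrays, lower in all ionomycin arrays by a mean of -0.59 ± 0.09 (limma adjusted p = 0.0731). Rab27a was at 8.39, 8.61 and 8.48 and then 8.27, 8.10 and 8.17, lower by a mean of -0.31 ± 0.08 (adjusted p = 0.203). For neither gene did the groups overlap, and neither passed.

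**Figure D2:**
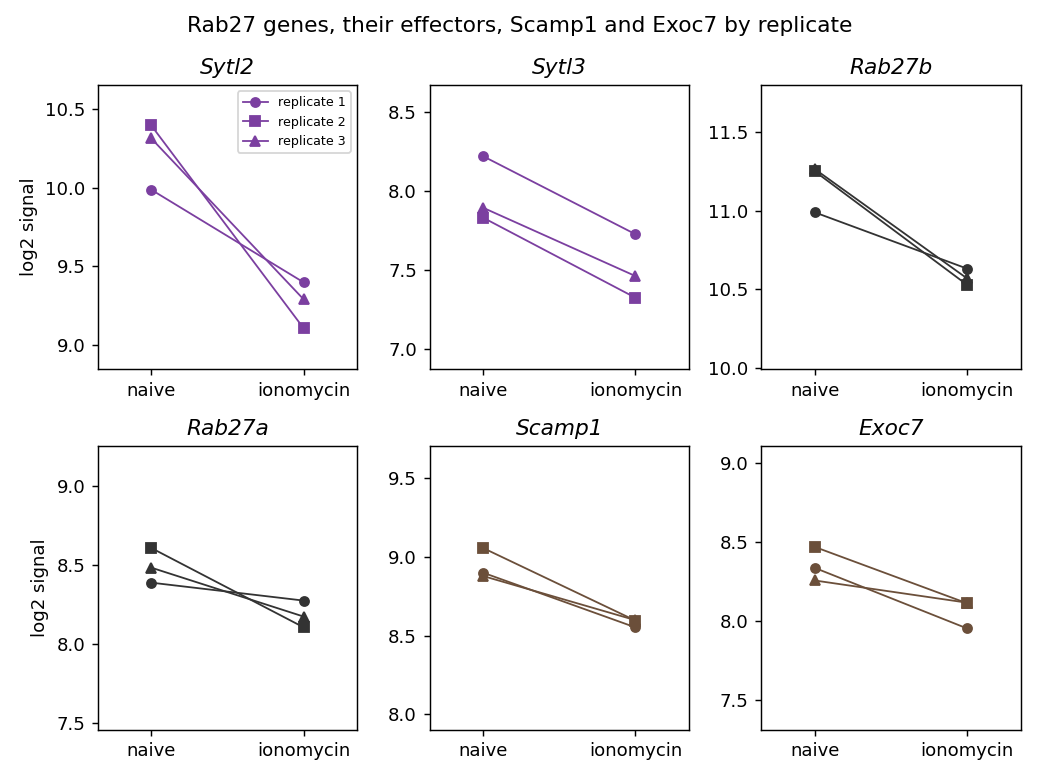
Each panel is a gene, with the log2 signal on the vertical axis over the same span of 1.8 in every panel, and each line joins the naive and the ionomycin array of 1 replicate number. The panels are a selection of genes that stood lower without overlap. The other Slp genes, Sytl1 (-0.16, with overlap) and Sytl4 (0.06), are not shown. All lines slope down, from 10.23 to 9.27 on average for Sytl2, and the lines of Sytl3 run in parallel with replicate 1 on top.

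SCAMPs are membrane proteins of secretory carriers and the exocyst is a tether. Scamp1 had the second smallest p among the members. Its log2 signals were 8.90, 9.06 and 8.88 in naive replicates 1 to 3 and 8.55, 8.59 and 8.60 in the ionomycin replicates. Both groups were tight (SD 0.10 and 0.03, n = 3 each) and lay apart, with a difference of -0.36 ± 0.07 (limma adjusted p = 0.110). Exoc7, which encodes the exocyst subunit EXO70, was at 8.34, 8.47 and 8.26 in naive and 7.95, 8.11 and 8.11 in ionomycin arrays, also without overlap (log2 -0.29 ± 0.08, adjusted p = 0.217). Scamp2, related to Scamp1, was at 10.21, 10.11 and 9.84 and then 9.87, 9.84 and 9.79. Naive replicate 3 lay within the range of the ionomycin arrays (log2 -0.22, adjusted p = 0.341, and -0.14 without naive replicate 1).

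The syntaxins are the target-membrane SNAREs, and 4 of the 6 were lower at all 3 replicate numbers. Stx7, a syntaxin of late endosomes, had log2 signals of 10.09, 10.22 and 9.99 in naive and 9.78, 9.90 and 9.90 in ionomycin arrays (log2 -0.24 ± 0.08, limma adjusted p = 0.266). Stx3, a plasma membrane and granule syntaxin, had 8.61, 8.44 and 8.35 and then 8.16, 8.32 and 8.24 (log2 -0.23 ± 0.08, adjusted p = 0.295). The groups lay apart for both genes, but by less than the spread of the naive arrays. The same held for Stx2, another plasma membrane syntaxin: its naive arrays ran from 8.22 to 8.66 and its ionomycin arrays from 8.12 to 8.19, so the closest arrays of the groups were 0.03 apart (log2 -0.26, adjusted p = 0.329, and -0.14 without naive replicate 1). Stx4a, the mouse gene for syntaxin 4, was at 9.46, 9.52 and 9.44 in naive and 9.42, 9.29 and 9.24 in ionomycin arrays. The gap between the groups was again small (log2 -0.16 ± 0.07, adjusted p = 0.328).

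The other syntaxins stood higher after ionomycin. Stx6, a syntaxin of the trans-Golgi network and endosomes, was at 8.94, 9.54 and 9.42 in naive and 9.78, 9.67 and 9.60 in ionomycin arrays. The groups did not overlap, yet most of the difference came from naive replicate 1: by number it was 0.84, 0.13 and 0.18, and the mean difference of 0.38 ± 0.16 (limma adjusted p = 0.324) was 0.15 without both replicate 1 arrays. Stx11, a lipid-anchored syntaxin whose loss causes familial haemophagocytic lymphohistiocytosis in people, showed the opposite kind of pattern. It was at 8.57, 9.25 and 9.21 in naive and 9.14, 9.63 and 9.67 in ionomycin arrays, so the groups overlapped, but the differences by number were close, at 0.57, 0.39 and 0.46. The fitted value was 0.47 ± 0.23 (limma adjusted p = 0.350, and 0.0693 with the block). Without both replicate 1 arrays Stx11 passed (log2 0.42, adjusted p = 0.0327), whereas without naive replicate 1 alone it was at 0.25 (adjusted p = 0.520).

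Promoters of 4 members are shown beside these genes, to show the sequence upstream of members that stood lower and higher. The 4 were picked among members with groups that lay apart, for holding CACGTG or, for Sytl3, AGATAA. Where a gene has more than 1 start site, the first that holds the motif is printed. Scamp1 has another start site without CACGTG. RefSeq's promoter table (build GRCm38.p6) held 25 of the 34 members, with 31 start sites, and the 250 bases before each start were searched on both strands. CACGTG, the E-box bound by MITF, a factor of the mast cell lineage, and by the related lysosomal factor TFEB, was in 5 of the 31 (16.1%, against 6.02% of all 32851 promoters), those of Scamp1, Stx6, Stxbp2, Unc13b and Vamp4. AGATAA, a motif bound by GATA factors, was in 3 (9.68%, against 9.99%): Scamp2, Syt1 and Sytl3. GGAAA, the core of NFAT motifs, was in 14 (45.2%, against 55.6%). TGANTCA, the AP-1 motif, was in 1 (Syt2; 3.23%, against 6.75%) and TGACGTCA, the cyclic AMP response element, in 1 (Stxbp3; 3.23%, against 1.55%). The GC box GGGCGG was in 15 (48.4%, against 32.7%) and CCAAT in 10 (32.3%, against 33.8%). Of the 5 genes with CACGTG, Scamp1, Stxbp2, Unc13b and Vamp4 were lower and Stx6 was higher, none past the threshold, beside 22 lower of all 34 members. A match is a description of these letters and not a site of binding.
The sequences run 5′ to 3′ on the gene's strand and end at the base before the start. Capitals mark CACGTG in the promoters of Scamp1 (chr13:94285832-94286081, minus strand), Stxbp2 (chr8:3630859-3631108, plus strand) and Stx6 (chr1:155158453-155158702, plus strand), and the AGATAA match, which lies on the other strand, in that of Sytl3 (chr17:6658809-6659058, plus strand). No other motif searched overlapped these matches.
Scamp1: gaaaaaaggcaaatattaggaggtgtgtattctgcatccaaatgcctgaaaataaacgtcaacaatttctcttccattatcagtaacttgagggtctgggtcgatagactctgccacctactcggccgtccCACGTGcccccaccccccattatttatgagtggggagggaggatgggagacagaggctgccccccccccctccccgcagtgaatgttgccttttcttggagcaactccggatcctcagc
Stxbp2: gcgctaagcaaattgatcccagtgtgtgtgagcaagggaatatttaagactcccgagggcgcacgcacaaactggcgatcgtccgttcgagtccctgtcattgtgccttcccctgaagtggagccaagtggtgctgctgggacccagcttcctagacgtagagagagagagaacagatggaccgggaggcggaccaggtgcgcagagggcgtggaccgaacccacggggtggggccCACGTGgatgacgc
Stx6: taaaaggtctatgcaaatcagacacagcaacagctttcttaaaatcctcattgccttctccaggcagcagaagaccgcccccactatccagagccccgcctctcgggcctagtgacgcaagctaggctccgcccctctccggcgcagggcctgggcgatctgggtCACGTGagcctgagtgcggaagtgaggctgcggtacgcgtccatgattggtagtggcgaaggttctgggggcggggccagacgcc
Sytl3: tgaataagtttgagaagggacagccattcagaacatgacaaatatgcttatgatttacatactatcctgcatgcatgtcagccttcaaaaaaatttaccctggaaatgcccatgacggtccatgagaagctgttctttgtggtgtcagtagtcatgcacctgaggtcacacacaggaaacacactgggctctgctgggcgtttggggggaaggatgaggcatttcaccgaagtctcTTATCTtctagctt

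Both SNAP-23 type genes were lower in every ionomycin array, by little. Snap23, the main target-membrane partner of syntaxins in mast cells, was at 10.90, 10.87 and 10.93 in naive and 10.82, 10.81 and 10.79 in ionomycin arrays. The arrays of a group agreed within 0.06, and the difference was -0.10 ± 0.05 (limma adjusted p = 0.378). Snap29, a relative that acts at several intracellular membranes, was at 10.30, 10.07 and 10.02 and then 9.89, 10.00 and 10.00 (log2 -0.17, adjusted p = 0.390, and -0.080 without naive replicate 1). With naive replicate 3 at 10.02 the groups were almost touching.

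For the VAMPs, the SNAREs of the vesicle side, the groups overlapped in all 5 genes. Vamp8, the VAMP known for its part in mast cell degranulation, was the steadiest member. It was at 8.96, 9.01 and 8.98 in naive and 8.97, 8.99 and 8.97 in ionomycin arrays, with a difference of -0.01 ± 0.05 and a 95% interval from -0.13 to 0.12 (limma adjusted p = 0.954). The direction of so small a value turned to 0.04 after quantile normalization. Vamp7, a VAMP of late endosomes and lysosomes, differed more between replicates than between groups: it was at 9.71, 9.05 and 8.94 in naive and 9.23, 8.74 and 8.64 in ionomycin arrays. The 3 differences by number were -0.48, -0.31 and -0.30 (limma adjusted p = 0.471, and 0.0934 with the block). Their mean was -0.36, and leaving out naive replicate 1 gave -0.12.

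Vamp3, known as cellubrevin, was at 9.30, 9.06 and 8.88 and then 8.97, 8.88 and 8.85 (log2 -0.18, limma adjusted p = 0.446), and the difference was -0.067 without naive replicate 1. Vamp2, which serves synaptic vesicles and is also present in mast cells, was at 9.35, 9.86 and 9.90 in naive and 9.91, 9.86 and 9.95 in ionomycin arrays. Apart from naive replicate 1 its 5 arrays lay within 0.09 of each other (log2 0.20, adjusted p = 0.510, and 0.026 without that array). Vamp4, of the trans-Golgi network, differed in opposite directions at the replicate numbers: it was at 8.04, 8.57 and 8.82 in naive and 8.16, 8.20 and 8.13 in ionomycin arrays, a difference of 0.12 at number 1 and of -0.37 and -0.69 at numbers 2 and 3 (log2 -0.31, adjusted p = 0.427). Without naive replicate 1 it was -0.53, and without naive replicate 3 it was -0.14.

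All 4 genes of the Munc18 and Munc13 proteins had a lower mean after ionomycin. Stxbp2 encodes Munc18-2, the partner of syntaxin 11 and syntaxin 3 in blood cells. It was at 10.58, 10.55 and 10.47 in naive and 10.38, 10.30 and 10.35 in ionomycin arrays, without overlap, and differed by -0.19 ± 0.06 (limma adjusted p = 0.247). Unc13d encodes Munc13-4, the priming factor that binds Rab27. Its arrays were at 9.23, 9.14 and 8.92 and then 8.97, 8.89 and 8.91, and overlapped because of naive replicate 3 (log2 -0.18, adjusted p = 0.367, and -0.11 without naive replicate 1).

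Unc13b, which encodes Munc13-2, spread over 0.60 among naive arrays, at 8.77, 8.40 and 8.17, and over 0.11 among ionomycin arrays, at 8.23, 8.13 and 8.16 (log2 -0.27, limma adjusted p = 0.393). Without naive replicate 1 the difference was -0.11 and without naive replicate 3 it was -0.41. Stxbp3, the gene of Munc18-3, was at 8.31, 8.28 and 8.39 in naive and 8.21, 8.33 and 8.23 in ionomycin arrays (log2 -0.07, adjusted p = 0.583). Of these 4 genes, Stxbp2 alone had groups that did not overlap.

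The calcium sensors were mostly higher, at low signals. Syt5 was at 7.48, 7.67 and 7.71 in naive and 7.82, 7.92 and 8.09 in ionomycin arrays, with no overlap and differences of 0.33, 0.25 and 0.38 at the 3 numbers (mean 0.32 ± 0.10, limma adjusted p = 0.241). Syt7, a high-affinity calcium sensor of lysosomes and granules, was at 6.79, 6.94 and 6.90 and then 7.03, 7.10 and 7.10 (log2 0.20 ± 0.06, adjusted p = 0.248). Syt2, known from fast synaptic release and from mast cell degranulation, was at 6.52, 6.58 and 6.71 and then 6.78, 6.76 and 6.86 (log2 0.20 ± 0.07, adjusted p = 0.283). In these genes all ionomycin arrays were above all naive arrays. Syt3 was also higher without overlap, from 6.40, 6.46 and 6.46 to 6.55, 6.55 and 6.74 (log2 0.17, adjusted p = 0.325). Syt1, the neuronal sensor, ran from 5.60 to 5.76 over the 6 arrays and so stayed below the background level of 5.99 in both groups.

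Complexin and DOC2 genes were likewise higher by little. Cplx2, which encodes complexin 2, the complexin reported in mast cells, was at 6.86, 6.76 and 6.82 in naive and 6.98, 7.08 and 7.12 in ionomycin arrays (log2 0.25 ± 0.06, limma adjusted p = 0.199). Doc2a, a C2-domain calcium sensor, was at 7.82, 7.88 and 7.87 and then 7.97, 7.98 and 8.06 (log2 0.15 ± 0.06, adjusted p = 0.303). Both had groups that lay apart. Doc2b was below background in both groups, from 5.74 to 5.89 over the 6 arrays.

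The dim members can be set beside genes at background. The 1752 chemosensory receptor genes had a median difference of 0.02, and without overlap 145 of them were higher (8.28%) and 44 lower. Only 101 of them were above background, so most lay at lower signals than these members. Dim markers of other lineages can be set beside them too. All 8 B and T cell markers had a higher mean, 3 without overlap (37.5%, against 18.9% of all genes), among them Cd79a (0.19). Of 12 neutrophil markers, 8 had a higher and 4 a lower mean. Without overlap 2 of them were higher (Prtn3 by 0.18 and Camp by 0.16) and 0 lower. That is 16.7% higher, near the 18.9% of all genes. Whether the dim members rose beyond such genes was not tested. The array medians over all 65770 rows were 0.07 higher on average after ionomycin. For Syt2, Syt3, Syt5, Syt7, Cplx2 and Doc2a the difference kept its sign under both other scalings, but it shrank. Quantile normalization took Syt3 from 0.17 to 0.093, Syt2 from 0.20 to 0.12 and Syt7 from 0.20 to 0.12, and centring took Doc2a from 0.15 to 0.080. The 2 remaining synaptotagmins were lower. Syt9 was at 7.55, 7.98 and 7.80 in naive and 7.50, 7.50 and 7.43 in ionomycin arrays (log2 -0.30 ± 0.11, limma adjusted p = 0.296), and replicate 1 hardly differed, by -0.05. Syt11, which lacks the usual calcium-binding residues, was at 6.79, 6.81 and 6.84 and then 6.69, 6.71 and 6.75, a difference of about -0.10 at each number (adjusted p = 0.387).

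**Figure D3:**
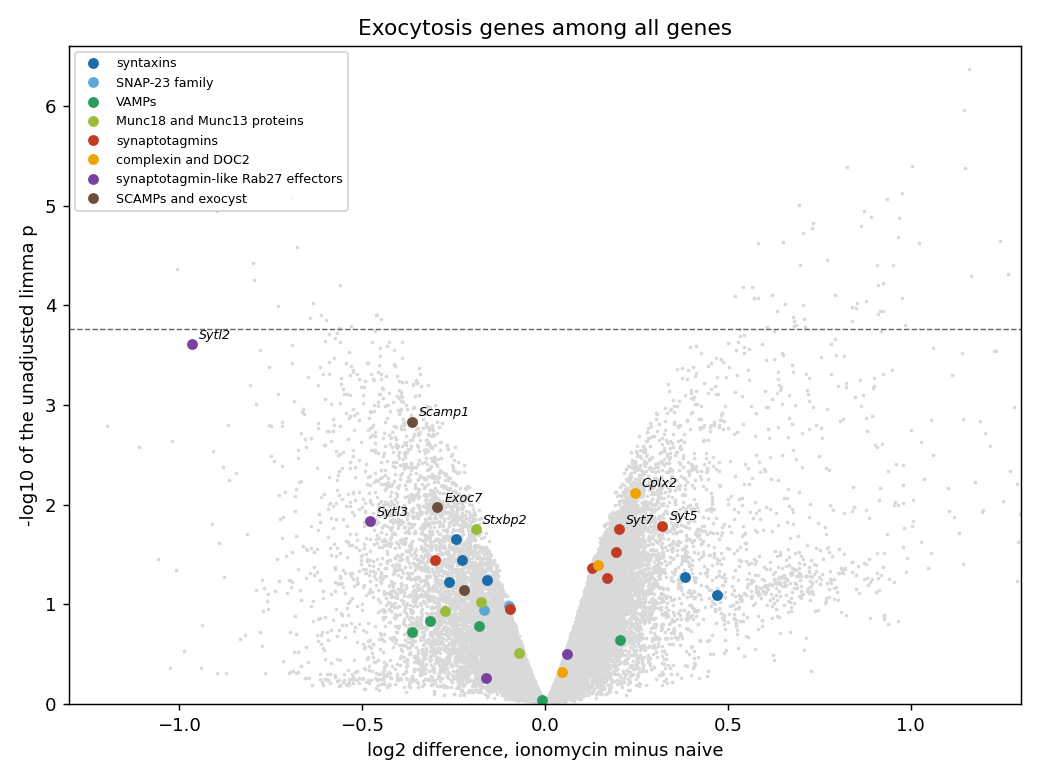
Each grey dot is a gene, with its log2 difference (ionomycin minus naive) on the horizontal axis and the negative log10 of its unadjusted limma p on the vertical axis; coloured dots are the 34 members by role, and the dashed line marks the largest unadjusted p of a called gene, 0.000174. Sytl2 lies just under the line at -0.97, all other members lie well below it, and 78 genes lie outside the plotted range.

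Replicates differed among the members mainly within the naive group. The naive SD was larger than the ionomycin SD in 27 of 34 members (79.4%), against 60.8% of all genes. Of genes with a mean above background the share was 64.4%. The naive arrays spanned more than 0.5 in 7 of the 34 members (Stx6, Stx11, Vamp2, Vamp4, Vamp7, Unc13b and Sytl1), and the ionomycin arrays in 2 of these, Stx11 and Vamp7. Over all 30102 genes the naive arrays did so in 4218 and the ionomycin arrays in 2443. Of the 19200 genes with a mean above background, 3701 and 2113 did, so such a spread is common at these signals. Naive replicate 1 was the highest or the lowest naive array in 28 members, or 82.4%, which is the share found over all genes (82.2%). With a block that sets replicate 1 against replicates 2 and 3, an alternative chosen after seeing the data, Stx11 and Syt5 passed as higher and Sytl2, Sytl3, Scamp1 and Vamp7 as lower (limma adjusted p from 0.0161 to 0.0489), where 4.72% of all genes passed. With weights estimated for each array, 3 members passed as higher (Syt5, Syt7 and Cplx2) and 9 as lower (Stx4a, Stx7, Vamp4, Stxbp2, Syt9, Sytl2, Sytl3, Scamp1 and Exoc7), where 12.9% of all genes passed.

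**Figure D4:**
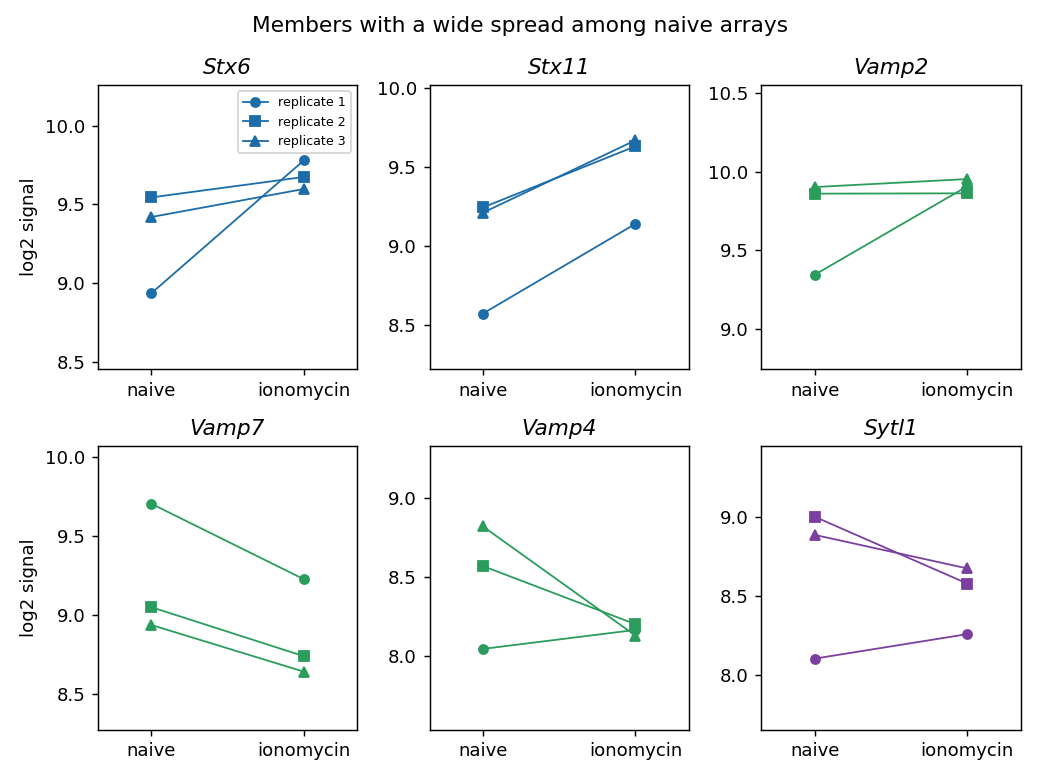
Each panel is a member with a wide spread among naive arrays, with the log2 signal on the vertical axis over a span of 1.8 and each line joining the arrays of 1 replicate number. The lines of Stx11 and of Vamp7 run in parallel (0.57, 0.39 and 0.46 for Stx11), while those of Stx6 and Vamp2 converge because naive replicate 1 starts low.

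Other genes of the pathway were read from 5 lists with 104 genes, of which 98 were measured. In limma 0 of the 98 passed; before adjustment 10 were higher and 12 lower with p under 0.05 (10.2% and 12.2%, against 10.2% and 5.44% of all genes). With the replicate block 1 passed, the exocyst gene Exoc3. The groups did not overlap for 26 genes that were higher (26.5%, against 18.9% of all genes) and 16 that were lower (16.3%, against 7.31%), and the median difference was -0.01. Of genes with a mean above background, 19.4% were higher and 10.6% lower without overlap. The genes named below are the 2 of each list with the smallest p above background.

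Of the 13 other exocyst and SCAMP genes, 4 were lower and 2 higher without overlap (30.8% and 15.4%), and the median was -0.23. Exoc3, the subunit SEC6, was at 9.64, 9.47 and 9.47 in naive and 9.07, 8.97 and 8.93 in ionomycin arrays, a difference of -0.54 ± 0.07 (limma adjusted p = 0.0614, and 0.0462 with the block). Exoc1, the subunit SEC3, was at -0.37 (adjusted p = 0.183). Among 24 Rabs of granules and their partners, 5 were higher and 5 lower without overlap, which is 20.8% each, against 18.9% and 7.31% of all genes. Rab32, a Rab of lysosome-related organelles, was higher by 0.45 ± 0.07 (adjusted p = 0.0680), beside the lower Rab27b.

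Among 20 SNARE regulators and disassembly factors, 5 were higher and 4 lower without overlap (25.0% and 20.0%). Stxbp6, which encodes amisyn, stood at 0.40 ± 0.09 (limma adjusted p = 0.165), and Stxbp5, which encodes tomosyn, a syntaxin-binding inhibitor of SNARE assembly, at -0.25 ± 0.06 (adjusted p = 0.185). Among 21 other SNAREs, 3 were higher and 2 lower without overlap (14.3% and 9.52%, both near the shares of all genes): Sec22b, of the route between endoplasmic reticulum and Golgi, was at 0.20 (adjusted p = 0.271) and Stx17, the autophagosomal syntaxin, at -0.34 (adjusted p = 0.275). The 20 other synaptotagmins and C2 proteins were mostly dim and mostly higher, 11 of them without overlap (55.0%) against 1 lower (5.00%), with a median of 0.13; Syt15 stood at 0.22 (adjusted p = 0.243) and Syt6 at 0.17 (adjusted p = 0.252).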

How the data were processed

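The values used are log2 signals that the authors deposited, 65770 rows by 6 arrays; the submitters' processing notes name the R package oligo. Normalization, summarization and build are not stated in what was used here. The log2 scale was read from the values (3.01 to 14.6). Rows were named by the platform annotation, symbols were updated by Entrez ID through RefSeq, and 1 row per gene was kept, the brightest by 6-array mean. Groups were compared in limma 3.58.1 (lmFit, eBayes; R 4.3.3; with version 1.17.8 of the data.table package) over all genes, without a block or filter, after a test on simulated data. The simulated noise was independent between arrays, with no replicate effect. That test therefore cannot speak for the unblocked fit where replicate 1 stands apart. Replicate numbers in the titles are shared by the groups; same-numbered arrays deviated together across genes (r = 0.711, 0.476 and 0.469), so the blocked fit is given beside the results; replicates 2 and 3 correlated as closely across numbers (0.524 and 0.481), so this sets only replicate 1 apart. Naming rule: all members by role, each array's values where the groups lay apart above background or the difference reached 0.5, and of each pathway list the called genes or the 2 of smallest p. Values of other members were added after they were seen. Members and lists were chosen with earlier results of these data known. Alternatives were the block, 2 scalings, a filter on dim genes, eBayes settings, weights for arrays, averaging of a gene's rows and leaving out arrays.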

Additional observations from a re-analysis of the deposited data

How the results depend on the processing

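Main counts were 105 genes and 0 members past the threshold. Without 1 array the genes ranged from 1 to 150, the members that were lower from 0 to 1 (Sytl2, without naive replicate 1) and the median member from -0.15 to -0.10. Without both replicate 1 arrays 852 genes, 1 higher and 2 lower members passed and the median was -0.10. With array weights these counts were 3894, 3 and 9, where 12.9% of all genes passed, and with a block of 2 levels, chosen after seeing the data, 1421, 2 and 4. The replicate block gave 152 genes and changed no member's call (0 members higher and 0 lower). With genes above background only, 1 member (Sytl2) was lower. Centring left 5 higher members without overlap, against 9, and moved the median to -0.23. Direction turned in 4 members: Vamp8 (0.038 after quantile normalization; -0.019 to 0.0073 without 1 array), Doc2b (-0.019 under both scalings), Sytl4 (-0.0165 after quantile normalization and -0.0045 after centring) and Sytl1 (-0.16 in all arrays; -0.44 to 0.0089 without 1 array). The cause was not tested. The other 30 members kept their direction in every alternative. By the background level used, 2 members, Syt1 and Doc2b, were not above it in either group. Being above it does not by itself show that a gene is expressed, as 6 of 8 B and T cell markers were above it too. Syt2 (mean 6.70), Syt3 (6.53), Syt11 (6.76) and Sytl4 (6.33) were no brighter than Pax5 (6.84), the brightest of those markers.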
